A study of Mus musculus with 15 samples.

Results

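The cytochrome P450 genes described here were all mouse genes on a liver array whose annotated symbol is Cyp followed by a number, leaving out the Cyp2c genes and Cyp51, Cyp7a1, Cyp7b1, Cyp8b1 and Cyp27a1. This rule took 62 of 22626 probe sets, array controls not counted. The 62 probe sets stood for 47 of 12393 genes that had a probe set of their own, and 4 of them were each shared by a pair of genes (Cyp2a5 and Cyp2a4, Cyp3a41b and Cyp3a41a, Cyp4a31 and Cyp4a10, Cyp4f37 and Cyp4f16). The largest subfamilies were Cyp2d with 7 genes, Cyp3a and Cyp4f with 5 each, and Cyp2b and Cyp2j with 4 each. A gene was read from the probe set with the highest mean signal, and for the 9 genes with several probe sets a disagreement in an on-off call is given with the gene. Mean signals of 12 of the 47 genes lay below the 40th percentile of all probe sets, and those genes are called dim here.

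RNA came from the livers of 15 mice labelled as adult males 3 months old, with 1 array per mouse and 3 biological replicates in each of 5 groups. Z4 mice carried the mutant Z form of human alpha1-antitrypsin, received no doxycycline and expressed the protein, whereas Z1 mice of the same line drank water with doxycycline (40 µg per mL) since conception, which keeps the transgene off. M4 and M1 mice carried the wild type M form under the same pair of conditions, and WT mice were littermates with no transgene and no doxycycline. Expression was restricted to hepatocytes per the labels, which name no promoter, and no probe set for the human protein was analysed here. In Z4 minus Z1 and M4 minus M1 the transgene and the absence of doxycycline cannot be told apart, since the WT group had no doxycycline counterpart.

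Sex-linked signals went against the label of the M4 group. Xist, the noncoding RNA of X inactivation, had signals of 1149.2, 226.0 and 32.6 on M4 arrays 1, 2 and 3, against 13.7 to 74.3 on the other 12 arrays. The Y-linked gene Eif2s3y had 0.4, 1.3 and 42.1 on the M4 arrays, against 105.3 to 437.6 on the others, and the Y-linked Kdm5d and Uty had 12, 11.4 and 23.2, and 4.6, 5.6 and 8.5, against 43.6 to 90.3 and 22.8 to 80.0. M4 arrays 1 and 2 were thus the highest of all in Xist and the lowest in the Y-linked genes, and M4 array 3 lay between them and the rest in the Y-linked genes. The Z4 arrays stood apart in some of these genes. In Xist they had 56.5, 51.1 and 74.3, above all Z1 and M1 arrays (13.7 to 18.1). They overlapped WT there (35.9, 32.5 and 69.4). In Eif2s3y they had 134.2, 105.3 and 147.7, below all Z1, M1 and WT arrays (194.6 to 437.6). In Kdm5d (46.3, 49.5 and 54.3) they overlapped Z1 and M1. In Uty (37.9, 51.8 and 31.7) they lay below all Z1 arrays (74.9, 66.7 and 80.0) but overlapped M1 and WT. Z4 minus Z1 and M4 minus M1 therefore also set apart arrays that differ in several of these signals. The part of the signals in the results was not tested. Calls in M4 minus M1 that ended with M4 array 3 alone are given with that value, and there the lone array is assumed to vary like the other groups.

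Arrays of the groups also differed in their controls. Added poly-A control RNAs had median signals of 1.85 to 2.75 in Z4, 53.35 to 61.95 in Z1, 3.8 to 5.6 in M4, 51.7 to 69.3 in M1 and 40.75 to 49.55 in WT. The 5' control probe set of 18S ribosomal RNA had 1879.9 to 2666.0 in Z4 and 1830.0 to 2680.7 in M4. It had 165.6 to 568.1 in Z1, 154.4 to 442.0 in M1 and 75.0 to 285.8 in WT. The summed signal of 8 hepatocyte marker genes was 46213 to 50336.5 in Z4, 53524.7 to 62415.2 in Z1, 45842 to 55470.1 in M4, 55785.9 to 62322.4 in M1 and 80534.3 to 98362.7 in WT. The median array signal was 47.8 to 52.5 in Z4 and 43.9 to 54.9 in M4, against 32.0 to 32.2 in Z1 and 30.4 to 31.3 in M1, and was 42.3 to 44.9 in WT. Within each line, the group with the transgene on therefore stood apart from the doxycycline group in all of these values, and WT stood apart from all transgenic groups in the marker sum. Their part in the results below was not tested.

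Cytochrome P450 enzymes are heme proteins of the endoplasmic reticulum or mitochondria that insert an oxygen atom into lipophilic molecules. Families Cyp1, Cyp2 and Cyp3 metabolise mainly drugs, other foreign compounds and steroids, family Cyp4 hydroxylates fatty acids, and the higher-numbered families act on steroid hormones, vitamins and sterols. In mouse liver many of these genes are induced by nuclear receptors or by the aryl hydrocarbon receptor, and a large set differs between males and females under the control of the growth hormone pattern. Alpha1-antitrypsin is a protease inhibitor that hepatocytes secrete, and its Z form folds poorly and accumulates inside the cell.

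Between Z4 and Z1 livers, 14 of the 47 P450 genes were higher and 3 were lower, and 38.5% of all 12393 genes were called in this comparison (31.2% higher, 7.31% lower). In M4 minus M1, 21 were higher and 9 lower, beside 49.8% of all genes (37.5% higher, 12.3% lower). With M4 array 3 alone, 7 were higher and 4 lower, beside 37.3% of all genes. None of these shares was tested against the background. The median change of all genes was 0.25 in Z4 minus Z1 and 0.30 in M4 minus M1, and quantile normalization brought it to 0.05 and 0.10. On that scale 11 P450 genes were higher and 2 lower in the Z line and 17 and 7 in the M line. The shares of all genes called on that scale were not counted for the on-off comparisons, so on-off counts after quantile normalization stand without a background. Among the 28 genes of families Cyp1 to Cyp3, 9 were higher and 3 lower in Z4 minus Z1, with a median change of 0.35 against 0.25 over all genes. In M4 minus M1, 12 of them were higher and 7 lower, with a median change of 0.236 against 0.30 over all genes. Of the 17 genes called in Z4 minus Z1, 14 (82.4%) were called in the same direction in M4 minus M1, where they made up 46.7% of 30 calls. Over all genes the corresponding shares were 78.3% and 60.5%. Tested as an interaction, Z4 minus Z1 set against M4 minus M1 passed for 0 P450 genes by limma, beside 0.387% of all genes, while 13 of 47 had an unadjusted p under 0.05, beside 15.2% of all genes. Calls are limma tests on log2(signal + 16) with Benjamini-Hochberg adjusted p under 0.05.

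**Figure D1:**
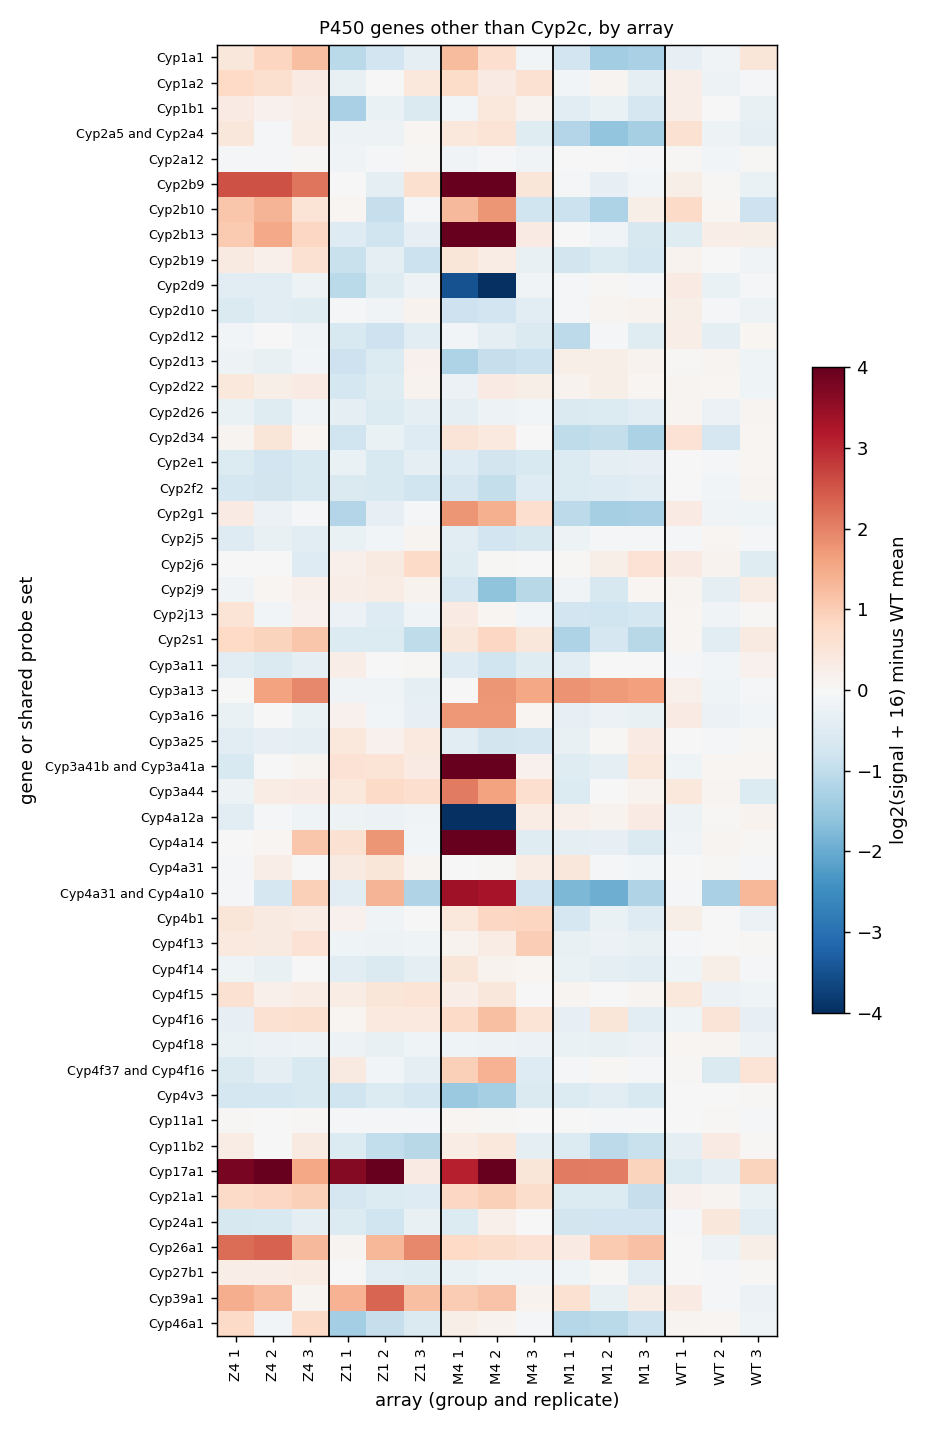
Each row is a P450 gene or shared probe set and each column an array, coloured by log2(signal + 16) minus the mean of the 3 WT arrays, with colours capped at 4 in either direction. Cyp2b9, Cyp2b13, the Cyp3a41 and Cyp4a14 rows are deep red on M4 1 and M4 2 but not on M4 3, Cyp2d9 and Cyp4a12a are deep blue on the same arrays, and Cyp2b9 is red on all Z4 arrays.

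Cyp2b9 and Cyp2b13, enzymes typical of female mouse liver, gave the largest rises in M4 minus M1, and Cyp2b9 was also high on all Z4 arrays. The promoters of Cyp2b9, Cyp2b13 and their relative Cyp2b10, the classical target of the constitutive androstane receptor, are shown because the change in M4 minus M1 was 4.41 and 4.09 in the first pair and 1.39 in Cyp2b10, a difference between genes that was not tested. The sequences are RefSeq promoters of build GRCm38.p6, from 250 bases before to 50 bases after the annotated start, for Cyp2b9 (chr7:26173159-26173458), Cyp2b13 (chr7:26061245-26061544) and Cyp2b10 (chr7:25897408-25897707), all on the plus strand. Capitals mark the letters AGGTCA, the half-site of nuclear receptors, on either strand.
Cyp2b9: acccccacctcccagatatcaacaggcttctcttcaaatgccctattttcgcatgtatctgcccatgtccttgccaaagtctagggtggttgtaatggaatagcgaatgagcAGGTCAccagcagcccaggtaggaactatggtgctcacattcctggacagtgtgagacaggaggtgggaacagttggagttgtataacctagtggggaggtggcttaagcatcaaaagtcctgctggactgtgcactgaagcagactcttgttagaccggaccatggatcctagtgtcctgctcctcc
Cyp2b13: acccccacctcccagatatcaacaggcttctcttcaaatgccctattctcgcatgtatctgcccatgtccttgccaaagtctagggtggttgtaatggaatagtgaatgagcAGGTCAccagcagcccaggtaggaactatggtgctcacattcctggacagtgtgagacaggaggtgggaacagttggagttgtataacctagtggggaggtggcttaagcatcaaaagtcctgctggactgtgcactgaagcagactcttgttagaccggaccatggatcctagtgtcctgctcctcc
Cyp2b10: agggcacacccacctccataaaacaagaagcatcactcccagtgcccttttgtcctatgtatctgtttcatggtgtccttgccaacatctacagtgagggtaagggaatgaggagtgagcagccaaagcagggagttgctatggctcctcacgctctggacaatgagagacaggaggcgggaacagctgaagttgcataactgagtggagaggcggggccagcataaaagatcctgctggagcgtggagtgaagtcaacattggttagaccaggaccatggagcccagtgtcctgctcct
The windows of Cyp2b9 and Cyp2b13 were identical at 298 of 300 bases, and that of Cyp2b10 matched each of them at 77.2% of 289 aligned bases. AGGTCA stood in the first pair and not in the window of Cyp2b10. The same letters stood in 11 of 39 P450 promoters found in the table and in 16.3% of 32851 mouse promoters, so a match describes the sequence and no more.

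Cyp2b9 had signals of 1984.2, 2470.3 and 29.1 on M4 arrays 1, 2 and 3, against 15.2, 9.4 and 13.6 in M1. It had 172.9, 170.9 and 127.2 in Z4, against 15.8, 9.1 and 33.7 in Z1, and 22, 17.1 and 10.6 in WT. All 3 Z4 arrays lay above every Z1, M1 and WT array and above M4 array 3, but far below M4 arrays 1 and 2. M4 minus M1 was 4.41 on the log2 scale (SE 1.03, adjusted p = 0.00335 by limma) and 0.66 with M4 array 3 alone (adjusted p = 0.143). Z4 minus Z1 was 2.33 (SE 1.03) and did not pass with all groups sharing 1 spread (adjusted p = 0.0937). With only the Z4 and Z1 arrays in the fit the same change had an SE of 0.26 and passed (adjusted p = 0.0012), and Z4 minus WT did so too with only those groups (log2 change 2.41, adjusted p = 0.00454). Against M4 array 3 alone, Z4 was higher by 1.93 (adjusted p = 0.00239), and the interaction was then 1.68 (adjusted p = 0.027), whereas it was -2.08 with all M4 arrays and did not pass (adjusted p = 0.573), and -3.95 without M4 3 (adjusted p = 7.9e-05). The Z4 arrays, high in Cyp2b9 among the arrays outside M4, were also those with the lower Eif2s3y signals given above. In Kdm5d they overlapped Z1, and a relation to Cyp2b9 was not tested.

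Cyp2b13 followed Cyp2b9 in every group. Signals were 44.6, 68.3 and 36.8 in Z4, against 4.5, 1.1 and 7.6 in Z1, and 1471.3, 1333.3 and 20.9 in M4, against 13.3, 10.8 and 3.0 in M1, with 5.2, 19.4 and 18.4 in WT. The Z4 arrays again lay above all Z1, M1 and WT arrays. The change was 4.09 in M4 minus M1 (adjusted p = 0.00362), 0.58 with M4 array 3 alone (adjusted p = 0.22), and 1.68 in Z4 minus Z1 (adjusted p = 0.198, and 0.0015 with only those groups in the fit). The array probes of Cyp2b9 and Cyp2b13 were not compared, so that the share of a signal that comes from the other gene is not known.

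Cyp2b10 had 306.6, 373.4 and 205.7 in Z4, against 142.9, 62.8 and 127.0 in Z1, and 355.0, 498.2 and 71.1 in M4, against 66.6, 47.9 and 159.7 in M1, with 240.7, 141.0 and 68.3 in WT. Its Z4 arrays lay above all Z1 and M1 arrays, as did M4 arrays 1 and 2, and M4 array 3 lay within M1. The changes were 1.32 in Z4 minus Z1 (adjusted p = 0.0979, and 0.0145 with only those groups) and 1.39 in M4 minus M1 (adjusted p = 0.0697), and the second passed without M4 3 (2.16, adjusted p = 0.00348) or M1 3 (1.81, adjusted p = 0.0389). The other probe sets of Cyp2b10 gave 1.49 and 1.39 in M4 minus M1 and just passed (adjusted p = 0.0482 and 0.0475). With M4 array 3 alone those changes were 0.046 and -0.26. Cyp2b19, an enzyme known from mouse skin, was dim, at 34.9 to 51.3 in Z4 against 8.2 to 18.9 in Z1 (log2 change 1.08, adjusted p = 0.00108), and at 20.2 to 46.8 in M4 against 10.5 to 14.3 in M1 (log2 change 0.83, adjusted p = 0.00427). Its M4 minus M1 change did not pass after quantile normalization (0.32, adjusted p = 0.21) or with M4 array 3 alone (0.37, adjusted p = 0.249).

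**Figure D2:**
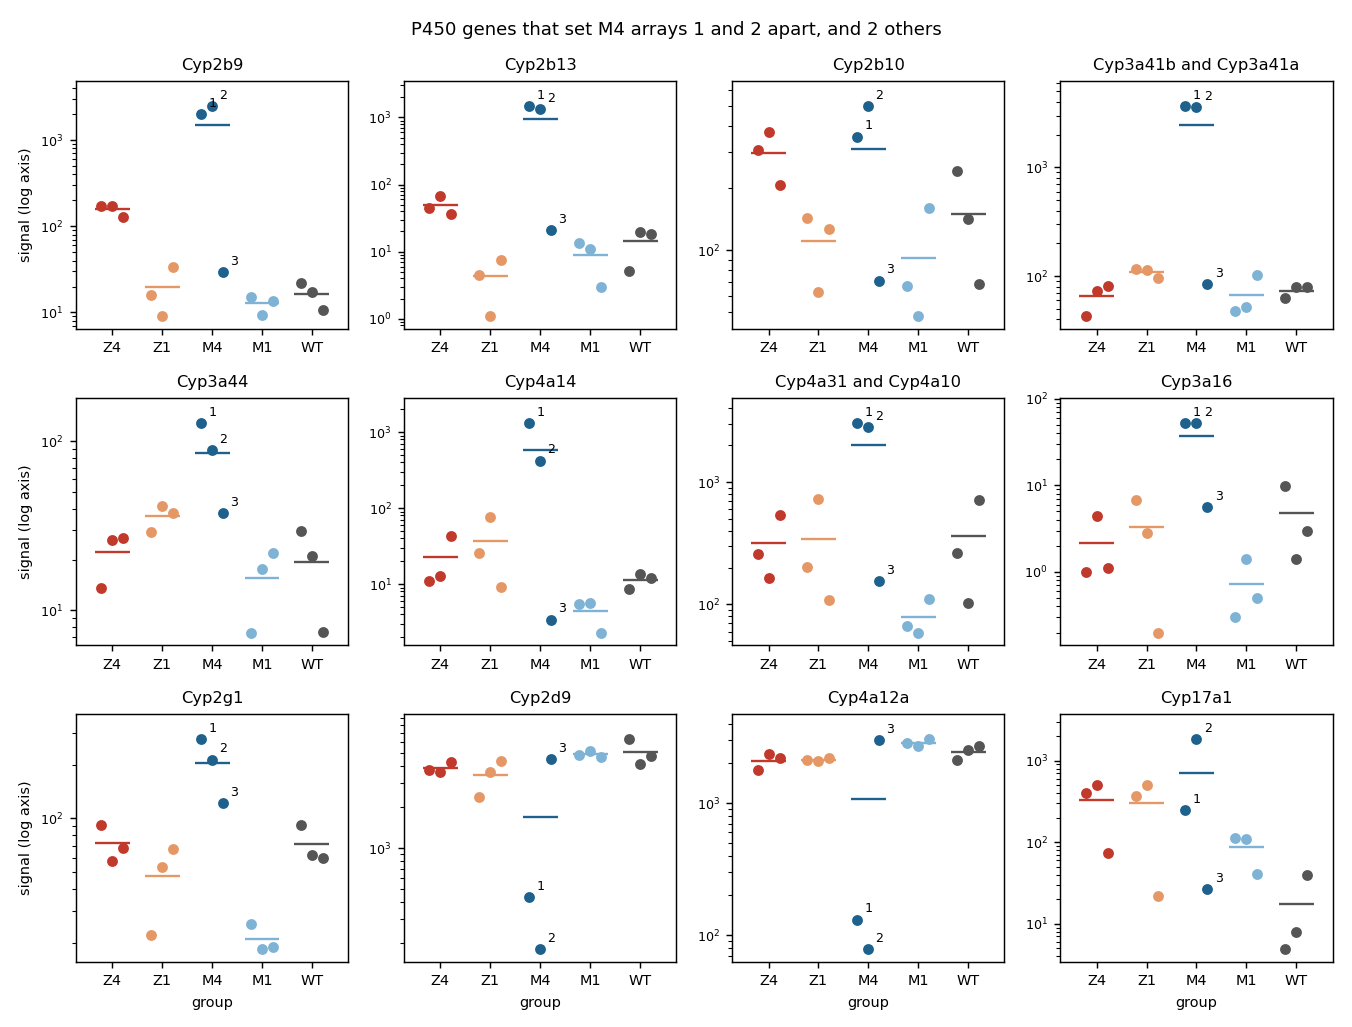
Signals on a log axis for 12 P450 genes or shared probe sets in the 5 groups, with 1 point per array, a bar at the group mean and the M4 replicate numbers beside the M4 points. In the panels of Cyp2b9, Cyp2b13, the Cyp3a41 and Cyp4a probe sets and Cyp2d9, M4 arrays 1 and 2 lie far from array 3, and the 3 Z4 points of Cyp2b9 and Cyp2b13 lie above all Z1, M1 and WT points.

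In the Cyp3a subfamily the genes typical of female liver and the main drug-metabolising genes differed. The promoters of Cyp3a41a and Cyp3a44, typical of female mouse liver, and of Cyp3a11, the main drug-metabolising Cyp3a of mouse liver, are shown. In M4 minus M1, Cyp3a44 and the probe set that Cyp3a41a shares with Cyp3a41b were called higher and Cyp3a11 lower. The start regions of the 3 genes are related. The windows are chr5:145720087-145720386 for Cyp3a41a, chr5:145805825-145806124 for Cyp3a44 and chr5:145879805-145880104 for Cyp3a11, all on the minus strand of GRCm38.p6 and written in the direction of the gene. Capitals mark ATTGAT, the core letters of Onecut factors, and TAAACA, those of forkhead factors, on either strand.
Cyp3a41a: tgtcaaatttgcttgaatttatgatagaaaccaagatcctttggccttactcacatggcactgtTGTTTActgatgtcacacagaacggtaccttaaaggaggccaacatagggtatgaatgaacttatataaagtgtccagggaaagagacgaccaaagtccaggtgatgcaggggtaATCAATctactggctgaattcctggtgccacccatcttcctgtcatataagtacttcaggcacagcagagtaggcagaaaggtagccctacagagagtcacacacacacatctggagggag
Cyp3a44: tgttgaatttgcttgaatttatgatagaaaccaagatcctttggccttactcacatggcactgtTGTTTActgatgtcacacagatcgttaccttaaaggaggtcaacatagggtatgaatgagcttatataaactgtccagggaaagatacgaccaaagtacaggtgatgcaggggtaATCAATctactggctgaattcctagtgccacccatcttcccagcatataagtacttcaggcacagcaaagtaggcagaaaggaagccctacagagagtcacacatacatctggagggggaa
Cyp3a11: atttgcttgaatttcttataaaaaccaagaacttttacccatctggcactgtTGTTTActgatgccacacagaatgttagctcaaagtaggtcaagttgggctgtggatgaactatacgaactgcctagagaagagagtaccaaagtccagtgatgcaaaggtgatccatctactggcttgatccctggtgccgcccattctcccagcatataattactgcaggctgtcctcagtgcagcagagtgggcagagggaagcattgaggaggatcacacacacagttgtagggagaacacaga
The windows of Cyp3a41a and Cyp3a44 were identical at 94.3% of 298 aligned bases, and Cyp3a11 matched them at 79.4% and 79.2%. Cyp3a41a and Cyp3a44 held both sets of letters, while Cyp3a11 held TAAACA but not ATTGAT. Among all mouse promoters of this length, ATTGAT stood in 7.54% and TAAACA in 13.4%. Among the 39 P450 promoters each stood in 7.

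The probe set shared by Cyp3a41b and Cyp3a41a had 3652.7, 3574.1 and 84.4 in M4, against 47.7, 52.1 and 103.5 in M1. It had 43.0, 73.3 and 80.9 in Z4, against 117.0, 114.7 and 96.8 in Z1, and 62.7, 79.2 and 79.4 in WT. M4 arrays 1 and 2 lay far above all others, M4 array 3 lay within M1, and every Z4 array lay below every Z1 array. Z4 minus Z1 was -0.65 and passed with only those groups in the fit (adjusted p = 0.0395), not with all groups in it. M4 minus M1 was 3.77 (SE 0.96, adjusted p = 0.00542) and 0.32 with M4 array 3 alone (adjusted p = 0.513), and it did not pass with only those groups in the fit (adjusted p = 0.0595). Cyp3a44 had 128.9, 88.6 and 37.6 in M4, against 7.4, 17.6 and 21.8 in M1, and rose by 1.59 (adjusted p = 0.00142), with 0.79 for M4 array 3 alone (adjusted p = 0.109). In Z4 it had 13.6, 26 and 26.9, against 29.1, 41.5 and 37.8 in Z1, so every Z4 array lay below every Z1 array (log2 change -0.46, adjusted p = 0.294). Cyp3a16, known from fetal and female mouse liver, was dim. It had 52.1, 52.7 and 5.6 in M4 and at most 9.8 on any array outside M4. Its M4 minus M1 change was 1.48 (adjusted p = 0.0029 by limma), and 0.37 with array 3 alone. Z4 minus M4 (-1.36) and M4 minus WT (1.19) were also called (adjusted p = 0.0382 and 0.0223). Both of these calls ended at a constant of 1 (adjusted p = 0.0847 and 0.0728).

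Cyp3a11 and Cyp3a25, bright hepatocyte genes, were lower with the transgene on in both lines. Cyp3a25 had 3348.4, 3583.9 and 3445.3 in Z4, against 6086.4, 5130.2 and 6016.6 in Z1, and 3286.9, 2711.7 and 2824.6 in M4, against 3731.9, 4663.5 and 5671.3 in M1. No array of an on group overlapped its off group. It fell by 0.72 in Z4 minus Z1 (adjusted p = 0.00195) and by 0.65 in M4 minus M1 (adjusted p = 0.00262), and was also called with M4 array 3 alone. Cyp3a11 had 5764.8, 5345.6 and 6141.9 in Z4, against 9506.6, 7975.6 and 8261.2 in Z1, and 4610.2 to 5733.4 in M4, against 5931.6 to 8079.4 in M1. It fell by 0.57 (adjusted p = 0.00867) and by 0.45 (adjusted p = 0.0233), and neither change passed after quantile normalization (-0.28 and -0.22, adjusted p = 0.101 and 0.176). The M4 minus M1 call of Cyp3a11 also ended with array 3 alone (-0.33, adjusted p = 0.241), with only those groups in the fit (adjusted p = 0.0728) and without M4 2, M1 2 or M1 3 (adjusted p = 0.0848 to 0.1).

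Cyp3a13, a Cyp3a enzyme also found in intestine, split the arrays in a way that followed neither the transgene nor doxycycline alone. Signals were 279.2, 877.1 and 1104.1 in Z4, against 247.6, 251.0 and 211.0 in Z1, and 276.1, 984.1 and 844.2 in M4, against 1008.4, 943.3 and 894.1 in M1, with 322.5, 246.4 and 268.0 in WT. All M1 arrays were high, all Z1 and WT arrays low, and 1 array each of Z4 and M4 was low while the other pair was high. Z4 minus Z1 was 1.40 (SE 0.46, adjusted p = 0.0275) and ended without Z4 2, Z4 3 or any Z1 array (adjusted p = 0.0569 to 0.127). M1 was higher than WT by 1.72 (adjusted p = 0.0156). Z1 minus M1 was -1.94 and did not pass with all groups sharing 1 spread (adjusted p = 0.127), but passed with only those groups in the fit (adjusted p = 0.00212).

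**Figure D3:**
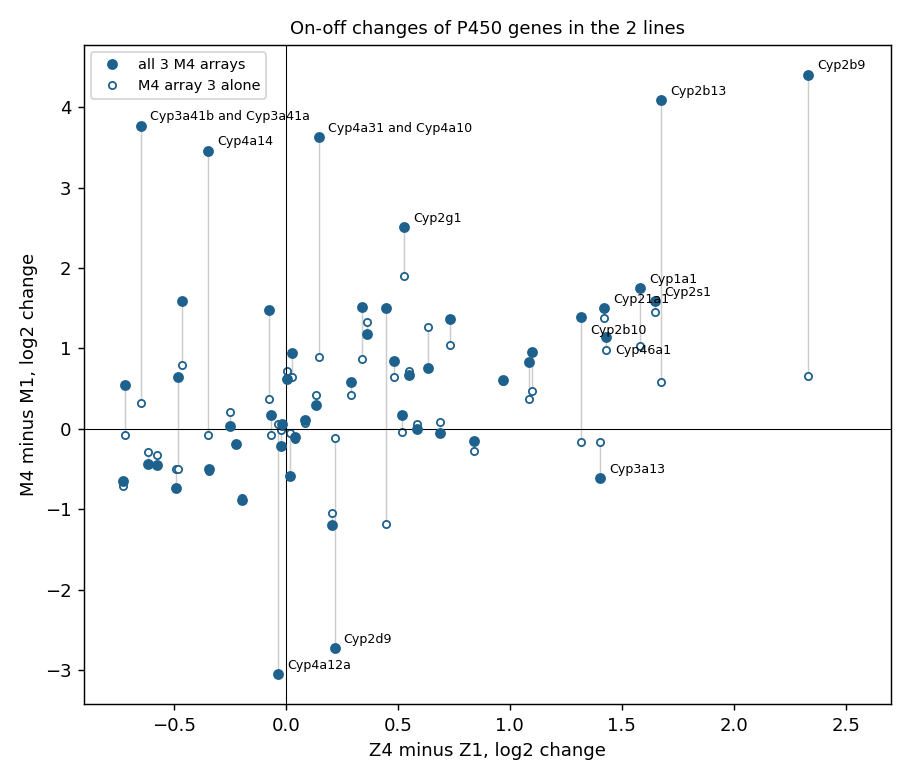
Each filled point is a P450 gene or shared probe set, with its Z4 minus Z1 log2 change on the x axis and its M4 minus M1 log2 change on the y axis, joined to an open point for M4 array 3 alone. Cyp2b9 moves from 4.41 to 0.66 and Cyp4a12a from -3.05 to near 0 when array 3 stands alone, whereas Cyp2s1 and Cyp21a1 stay near the same height.

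Across the whole set, M4 arrays 1 and 2 both lay above the other 13 arrays in 7 of 47 genes (Cyp2b9, Cyp2b13, Cyp2g1, Cyp3a16, Cyp3a44, Cyp4a14 and Cyp4f16), beside 5.77% of all genes. They both lay below the others in 5 (Cyp2d9, Cyp2d10, Cyp2d13, Cyp4a12a and Cyp4v3), beside 1.29% of all genes. M4 array 3 was within the range of the 12 arrays outside M4 in 6 of the 7 and in 4 of the 5. In the list of genes typical of female mouse liver, 5 of 8 measured were higher in M4 minus M1 and 0 lower. Of all genes, 37.5% were higher and 12.3% lower. The median change of the 8 was 1.55 against 0.30 over all genes, and with M4 array 3 alone 0.15 against 0.28. Both measured genes of the list typical of male liver, Cyp2d9 and Cyp4a12a, were lower in M4 minus M1, beside 12.3% of all genes. With M4 array 3 alone their changes were -0.115 and 0.065. In Z4 minus Z1, 0 of the 8 were called by limma with all groups sharing 1 spread, beside 38.5% of all genes. With only those groups in the fit, Cyp2b9, Cyp2b10 and Cyp2b13 passed as higher. The shared Cyp3a41 probe set, not among the 8, then passed as lower (-0.65, adjusted p = 0.0395). Every Z4 array of Cyp3a44 also lay below every Z1 array.

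In the Cyp4a subfamily, whose enzymes hydroxylate fatty acids, Cyp4a10 and Cyp4a14 are targets of the fatty acid receptor PPAR alpha, and Cyp4a12a is the enzyme typical of male mouse liver. Cyp4a14 had 1327.2, 420.8 and 3.4 in M4, against 5.5, 5.6 and 2.3 in M1. In the Z line it had 11.1, 12.9 and 43.4 in Z4, against 25.4, 76.0 and 9.2 in Z1, and in WT 8.6, 13.6 and 12.1. Its rise of 3.46 in M4 minus M1 (adjusted p = 0.0152) came from M4 arrays 1 and 2, and with array 3 alone the change was -0.07 (adjusted p = 0.939). The call ended without M4 1 or M4 2 (adjusted p = 0.0695 and 0.0608) and with only those groups in the fit (adjusted p = 0.087).

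The probe set shared by Cyp4a31 and Cyp4a10 had 3057.0, 2812.8 and 156.1 in M4, against 67.1, 59.0 and 110.5 in M1, 256.6, 164.2 and 541.9 in Z4, against 201.2, 722.5 and 109.2 in Z1, and 263.2, 103.1 and 716.7 in WT. M4 arrays 1 and 2 stood above all others, and the remaining groups other than M1 spread widely and overlapped. M4 minus M1 was 3.63 (adjusted p = 0.008) and 0.90 with array 3 alone (adjusted p = 0.532). The probe set of Cyp4a31 alone stayed at 0.4 to 8.7 on all arrays, near the bottom of the scale.

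Cyp4a12a had 131.0, 78.5 and 3004.4 in M4, against 2855.4, 2714.3 and 3052.3 in M1. Its signals were 1771.2, 2359.2 and 2185.8 in Z4, against 2115.4, 2089.7 and 2219.9 in Z1, and 2134.1, 2543.9 and 2716.8 in WT. M4 array 3 lay within M1, and M4 arrays 1 and 2 lay far below every other array. The gene fell by 3.05 in M4 minus M1 (SE 0.85, adjusted p = 0.00979), and with M4 array 3 alone the change was 0.07 (adjusted p = 0.833). The call ended without M4 2 (adjusted p = 0.0512) and with only those groups in the fit (adjusted p = 0.081). In Z4 minus Z1 the change was -0.03 (adjusted p = 0.98).

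In the Cyp2d subfamily, Cyp2d9 is a steroid 16-alpha-hydroxylase typical of male mouse liver. It had 436.2, 181.4 and 4512.1 in M4, against 4809.4, 5149.0 and 4714.5 in M1, and 3774.2, 3630.0 and 4316.8 in Z4, against 2389.3, 3611.3 and 4346.0 in Z1, with 4139.6 to 6328.5 in WT. It fell by 2.73 in M4 minus M1 (SE 0.75, adjusted p = 0.00905), and with M4 array 3 alone the change was -0.12 (adjusted p = 0.808). As in Cyp4a12a, M4 1 and M4 2 alone were low, and the change did not pass with only those groups in the fit (adjusted p = 0.0732).

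Cyp2d13 differed from these genes in that all 3 M4 arrays were low. It had 362.6, 452.0 and 472.3 in M4, against 1015.0, 1020.0 and 955.1 in M1, and 749.7, 704.8 and 814.0 in Z4, against 477.6, 596.5 and 972.6 in Z1, with 776.2 to 941.5 in WT. No M4 array overlapped any other group, and Z1 spread across the range of Z4. It fell by 1.195 in M4 minus M1 (SE 0.20, adjusted p = 3.53e-04), was called with M4 array 3 alone, and was higher in Z4 than in M4 by 0.80 (adjusted p = 0.0405). The last call ended with only those groups in the fit (adjusted p = 0.168), with M4 array 3 alone (adjusted p = 0.203) and without any single Z4 or M4 array (adjusted p = 0.0571 to 0.128). The interaction was 1.40 (SE 0.29) and narrowly missed the threshold (adjusted p = 0.0531). It passed at a constant of 64 (adjusted p = 0.0427), after quantile normalization (adjusted p = 0.0458), with 1 probe set per gene (adjusted p = 0.0457) and without dim probe sets (adjusted p = 0.0323), and also without Z1 3 (1.68, adjusted p = 0.00695) or M4 1 (1.29, adjusted p = 0.0165). A dimmer probe set of Cyp2d13 had 586.2, 578.5 and 742.2 in Z4, against 245.1, 302.7 and 488.5 in Z1 (log2 change 0.90, adjusted p = 0.00543), and 416.3, 358.2 and 290.9 in M4, against 438.9, 440.6 and 394.5 in M1 (log2 change -0.26, adjusted p = 0.346). The probe sets of Cyp2d13 thus disagreed on which of the on-off changes was called.

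Cyp2d10 was lower with the transgene on in both lines, at 2834.5 to 3051.9 in Z4 against 3836.4 to 4625.4 in Z1 (fell by 0.49, adjusted p = 0.0177) and at 2381.8 to 3088.1 in M4 against 3962.5 to 4678.6 in M1 (fell by 0.73, adjusted p = 0.00107). Its Z4 minus Z1 call was lost on quantile normalization (adjusted p = 0.141) and without Z4 1 or Z1 3 (adjusted p = 0.0554 and 0.0702), and its M4 minus M1 call with array 3 alone (adjusted p = 0.0615). Cyp2d22 had 1560.3 to 1750.1 in Z4 against 793.3 to 1436.9 in Z1 and rose by 0.69 (adjusted p = 0.0151), with a like change in its second probe set (0.74, adjusted p = 0.0105). The call of its main probe set ended without Z1 1 or Z1 2 (adjusted p = 0.0772 and 0.0544), and in M4 minus M1 the change was -0.05 (adjusted p = 0.867). Cyp2d34 rose by 0.73 in Z4 minus Z1 (adjusted p = 0.0455) and by 1.37 in M4 minus M1 (adjusted p = 9.63e-04), but the Z line call ended at constants of 1 and 64 (adjusted p = 0.0709 and 0.0613), after quantile normalization (adjusted p = 0.598) and without any Z4 array, Z1 1 or Z1 3 (adjusted p = 0.0681 to 0.157), and the M line call with array 3 alone (adjusted p = 0.0522). Cyp2d26 and Cyp2d12 were called in neither on-off comparison.

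Cyp2g1, known as an olfactory P450, was high on all M4 arrays and low in M1. It had 278.0, 213.5 and 121.4 in M4, against 25.6, 18.4 and 18.9 in M1, and 91.3, 57.5 and 67.9 in Z4, against 22.2, 53.3 and 67.0 in Z1, with 60.0 to 91.9 in WT. All 3 M4 arrays lay above every other array, and all M1 arrays lay below all Z4 and WT arrays and all but 1 Z1 array. It rose by 2.51 in M4 minus M1 (SE 0.30, adjusted p = 2.72e-05) and was called with array 3 alone (1.90, adjusted p = 0.00232). In Z4 minus M4 it was lower by 1.27 on the log2 scale (adjusted p = 0.0308), a call that ended with M4 array 3 alone (adjusted p = 0.344), with only those groups in the fit (adjusted p = 0.223) and without any Z4 array or M4 2 (adjusted p = 0.0559 to 0.136). Its interaction of -1.98 missed the threshold (adjusted p = 0.0612). It passed without dim probe sets (adjusted p = 0.0351) and without Z1 1 (-2.31, adjusted p = 0.0453), M4 1 (-1.74, adjusted p = 0.0205) or M4 3 (-2.29, adjusted p = 0.0191).

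The shared probe set of Cyp2a5 and Cyp2a4, which encode coumarin and testosterone hydroxylases, was set apart by M1. It had 4065.3, 2895.4 and 3694.4 in Z4, against 2610.0, 2577.8 and 3182.2 in Z1, 4037.8, 4369.0 and 2117.6 in M4, against 1316.8, 998.4 and 1174.0 in M1, and 4528.9, 2614.8 and 2263.5 in WT. Every M1 array was below every other array. M4 minus M1 was 1.52 (adjusted p = 6.76e-04) and M1 minus WT was -1.36 (adjusted p = 0.00431), while Z4 minus Z1 was 0.34 (adjusted p = 0.375). With M4 array 3 alone the M line change was 0.87 (adjusted p = 0.0628). Cyp2a12, a steroid hydroxylase, had 3383.1 to 3921.9 on all 15 arrays, and its changes in the 9 comparisons were within 0.14 of 0 on the log2 scale.

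Of 3 targets of the aryl hydrocarbon receptor, a sensor of dioxin-like compounds, all 3 were called higher in Z4 minus Z1 and in M4 minus M1, beside 31.2% and 37.5% of all genes, with median changes of 0.97 and 0.67 against 0.25 and 0.30 over all genes. After quantile normalization 2 of 3 were called in each line, and with M4 array 3 alone 0 of 3 were called in M4 minus M1 (median change 0.72). Cyp1a1, its best-known target, had 68.6, 97.3 and 126.2 in Z4, against 13.6, 20.3 and 31.3 in Z1, and 131.4, 82.3 and 41.3 in M4, against 20.5, 7.7 and 9.3 in M1, with 33.0, 39.5 and 70.9 in WT. Neither on group overlapped its off group. It rose by 1.58 (SE 0.33, adjusted p = 0.00219) and by 1.75 (adjusted p = 7.36e-04), and M1 minus WT was -1.14 (adjusted p = 0.0228). With M4 array 3 alone the M line change was 1.04 and missed the threshold (adjusted p = 0.0534), and the M1 minus WT call ended without M1 2, M1 3 or WT 3 (adjusted p = 0.0742 to 0.0963), at a constant of 64 (adjusted p = 0.078) and after quantile normalization (adjusted p = 0.126).

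Cyp1a2, the main Cyp1a of hepatocytes, had 4735.3, 4198.2 and 3420.6 in Z4, against 2198.1, 2717.6 and 3616.6 in Z1, and 4478.5, 3388.7 and 4124.4 in M4, against 2508.8, 2942.1 and 2092.3 in M1. Z1 array 3 lay within Z4, and M4 did not overlap M1. It rose by 0.55 (adjusted p = 0.0493) and by 0.67 (adjusted p = 0.0155). The Z line call ended with only those groups in the fit (adjusted p = 0.0762), at a constant of 1 (adjusted p = 0.078) and without Z4 1, Z4 2, Z1 1 or Z1 2 (adjusted p = 0.109 to 0.205). That of the M line ended without M4 1 or M1 3 (adjusted p = 0.0511 and 0.0709) and with M4 array 3 alone (0.72, adjusted p = 0.0743). Cyp1b1, a P450 of cells outside the hepatocyte, was dim at 30.6 to 36.4 in Z4 against 1.0 to 18.5 in Z1 (log2 change 0.97, adjusted p = 0.00574) and at 22.6 to 39.7 in M4 against 9.9 to 18.8 in M1 (log2 change 0.61, adjusted p = 0.0472). After quantile normalization neither of its changes passed (0.52 and 0.11, adjusted p = 0.185 and 0.796), and the M line call ended without M4 2, M4 3 or any M1 array (adjusted p = 0.0508 to 0.166) and with M4 array 3 alone (0.60, adjusted p = 0.187). Its other probe sets, also dim, gave 0.26 (adjusted p = 0.328) and 0.86 (adjusted p = 0.00329) in the Z line. In the M line both were called higher by limma, by 0.59 (adjusted p = 0.0236) and 1.25 (adjusted p = 1.59e-04). With M4 array 3 alone those changes were 0.42 and 1.04.

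**Figure D4:**
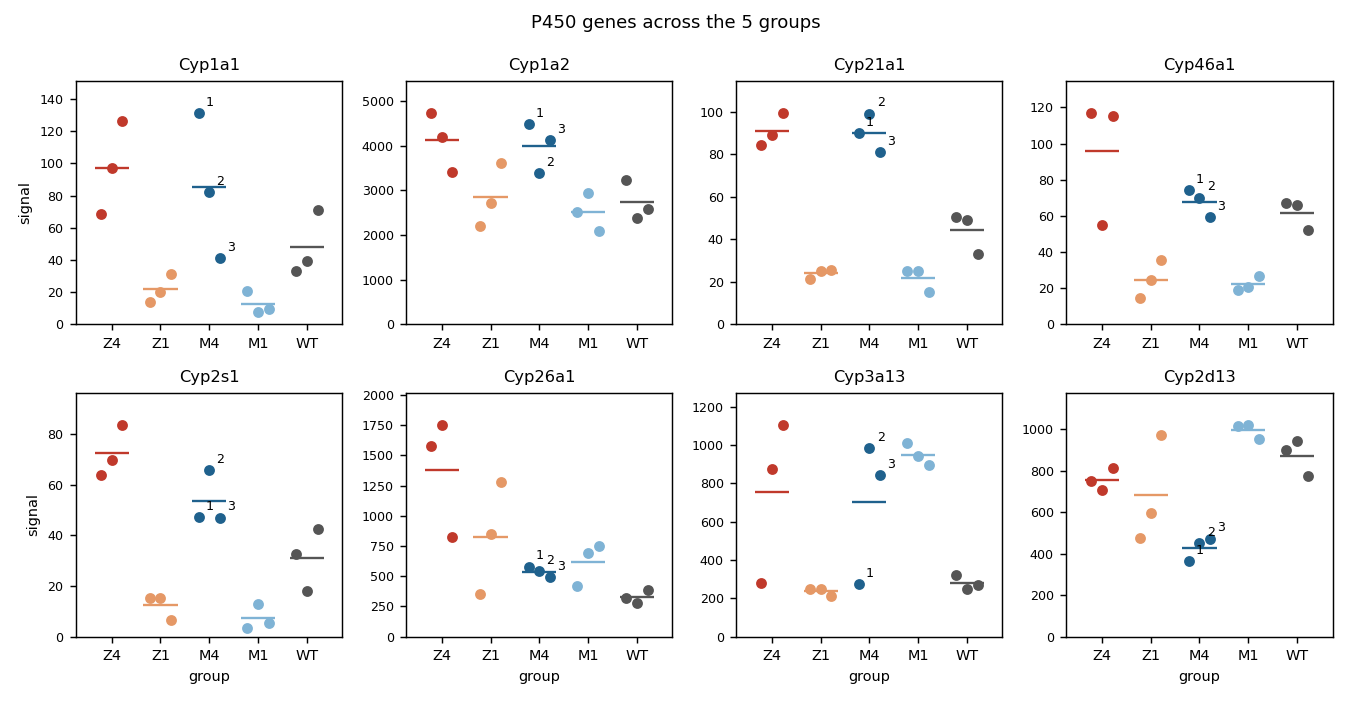
Signals on a linear axis from 0 for 8 P450 genes in the 5 groups, with 1 point per array, a bar at the group mean and the M4 replicate numbers beside the M4 points. Cyp1a1, Cyp21a1, Cyp46a1 and Cyp2s1 are higher in Z4 and M4 than in Z1 and M1, Cyp3a13 splits into arrays at 211.0 to 322.5 and arrays at 844.2 to 1104.1, and all M4 points of Cyp2d13 lie below the other groups.

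Cyp21a1, Cyp46a1 and Cyp2s1 rose in both lines, and in the probe set read for each gene no on group overlapped its off group. Cyp21a1, the steroid 21-hydroxylase of the adrenal cortex, had 84.5, 89.2 and 99.5 in Z4, against 21.2, 25.0 and 25.7 in Z1, and 90.0, 99.1 and 81.1 in M4, against 25.0, 24.9 and 15.3 in M1, with 50.7, 48.9 and 33.2 in WT. Z4 and M4 lay above WT, and WT above Z1 and M1, with no overlap. It rose by 1.42 (SE 0.15, adjusted p = 2.71e-05) and by 1.499 (adjusted p = 8.48e-06), was called with M4 array 3 alone, and its second probe set rose by 0.88 in Z4 minus Z1 (adjusted p = 0.0184) but not in M4 minus M1 (0.15, adjusted p = 0.667). Cyp46a1, the cholesterol 24-hydroxylase best known from brain, had 117.0, 55.0 and 115.3 in Z4, against 14.3, 24.6 and 35.4 in Z1, and 74.2, 70.1 and 59.2 in M4, against 19.0, 20.7 and 26.7 in M1 (rose by 1.43 and 1.14, adjusted p = 4.51e-04 and 0.00144). Cyp2s1, a P450 of epithelia, had 63.9, 69.9 and 83.5 in Z4, against 15.4, 15.1 and 6.7 in Z1, and 47.3, 65.7 and 47.0 in M4, against 3.5, 12.9 and 5.3 in M1 (rose by 1.65 and 1.59, adjusted p = 1.01e-04 and 6.58e-05). All 3 genes were called with M4 array 3 alone.

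These rises were among genes of low to middling signal, where rises were common. Of all genes with a mean between the 40th and 70th percentile (27.33 to 110.9), 46.0% were called higher in Z4 minus Z1 and 52.7% in M4 minus M1, against 20.6% and 25.4% of the brighter genes. Of the P450 genes in that range, 5 of 11 and 8 of 11 were higher. Among markers of other organs, the summed signal of 3 adrenal markers was 46.3 to 90.3 in Z4, 19.5 to 27.1 in Z1, 131.1 to 163.1 in M4, 7.4 to 21.2 in M1 and 46.7 to 107.4 in WT, with Hsd3b1 at 0.5 to 3.6 in Z1, M1 and WT. That of 3 kidney markers was 132.6 to 149.4 in Z4, 22.8 to 38.1 in Z1, 127.5 to 169.6 in M4, 11.2 to 31.8 in M1 and 60.4 to 83.9 in WT. Both sums were higher in each on group than in its off group, as Cyp21a1 was. So was the sum of 2 adipose markers. That of 4 exocrine pancreas markers overlapped between Z4 (780.0 to 1428.8) and Z1 (700.4 to 1377.0). It was lower in M4 (454.2 to 767.3) than in M1 (923.7 to 1039.9). In the Z line the adrenal markers did not all follow their sum. Star had 7.7 and 8.6 on Z4 arrays 2 and 3, below every Z1 array. On Z4 array 1 it had 54.5, above every Z1 array. Mc2r had 23.8, 31.2 and 44.6 in Z4, against 2.3, 0.6 and 0.7 in Z1. Hsd3b1 was also higher on every Z4 array. In the M line each adrenal marker was higher on every M4 array than on every M1 array. The part of these sums in the result of Cyp21a1 was not tested.

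Of 4 measured steroid hormone enzymes, Cyp21a1 and Cyp11b2 were higher and 0 lower in either line, beside 31.2% and 37.5% of all genes called higher. Cyp17a1, the 17-alpha-hydroxylase and 17,20-lyase of steroid synthesis, had 406.2, 504.4 and 72.8 in Z4, against 372.3, 505.3 and 21.9 in Z1, and 247.9, 1832.3 and 26.7 in M4, against 112.1, 110.4 and 40.8 in M1, with 4.9, 7.9 and 40.0 in WT. The third array of each transgenic group was its lowest, and replicate numbers were not found to pair the samples. Its SE was 1.19 between groups and 1.69 in the interaction, and it passed in none of the 9 comparisons with all groups sharing 1 spread. Other settings gave calls against WT. Z4 minus WT (3.15) passed with only those groups (adjusted p = 0.0407) and with the replicate number as a block (adjusted p = 0.0493). M4 minus WT (3.18) passed without dim probe sets (adjusted p = 0.0461), with the block (adjusted p = 0.0308) and without M4 3 (4.52, adjusted p = 0.0144). M1 minus WT (1.68) passed with only those groups (adjusted p = 0.0403), and Z1 minus WT without Z1 3 (3.89, adjusted p = 0.0401). Cyp11b2, the aldosterone synthase, was dim and rose by 1.10 in Z4 minus Z1 (adjusted p = 0.00261) and by 0.95 in M4 minus M1 (adjusted p = 0.00462), and neither passed after quantile normalization (adjusted p = 0.0596 and 0.121), nor the second with M4 array 3 alone (0.47, adjusted p = 0.246). Cyp11a1, the cholesterol side-chain cleavage enzyme, stayed at 0.4 to 2.6 on all arrays.

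Cyp26a1, which degrades retinoic acid, was highest in Z4. It had 1575.3, 1750.2 and 821.5 in Z4, against 350.9, 845.1 and 1276.4 in Z1, 579.8, 539.5 and 493.5 in M4, against 414.8, 689.5 and 751.8 in M1, and 321.0, 279.2 and 385.5 in WT. Z4 overlapped Z1 but lay above M4, M1 and WT. Z4 minus WT was 1.96 (SE 0.39, adjusted p = 0.00564), Z4 minus Z1 was 0.84 (adjusted p = 0.106) and Z4 minus M4 was 1.27 (adjusted p = 0.0785, and 0.0478 without dim probe sets). Without Z4 3 or without Z1 3, Z4 minus Z1 was 1.18 and 1.24 and passed (adjusted p = 0.044 and 0.0241). In Z1 minus WT, Cyp26a1 changed by 1.12 and missed the threshold (adjusted p = 0.0546 by limma). That change passed with 1 probe set per gene (adjusted p = 0.0493), without dim probe sets (adjusted p = 0.0452) and without Z1 1 (1.63, adjusted p = 0.00737). Cyp39a1, an oxysterol 7-alpha-hydroxylase, had 109.1, 220.9 and 94.5 in Z1, against 43.5, 29.0 and 24.2 in WT (log2 change 1.64, adjusted p = 0.00934). It was the only P450 gene called higher in Z1 than in WT before any alternative setting, and had 113.6, 95.0 and 35.2 in Z4. The vitamin D enzymes were dim. Cyp27b1, which activates vitamin D, had 11.5 to 12.5 in Z4 against 0.4 to 7.2 in Z1 (log2 change 0.59, adjusted p = 0.00834, and 0.34 after quantile normalization, adjusted p = 0.196), and Cyp24a1, which degrades it, rose by 0.62 in M4 minus M1 (adjusted p = 0.034), a call that ended without M4 2, M4 3 or any M1 array (adjusted p = 0.0671 to 0.142), with M4 array 3 alone (0.72, adjusted p = 0.0679), at a constant of 64 (adjusted p = 0.0693) and after quantile normalization (adjusted p = 0.22). The second probe set of Cyp24a1 gave 0.18 in M4 minus M1 (adjusted p = 0.507).

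**Figure D5:**
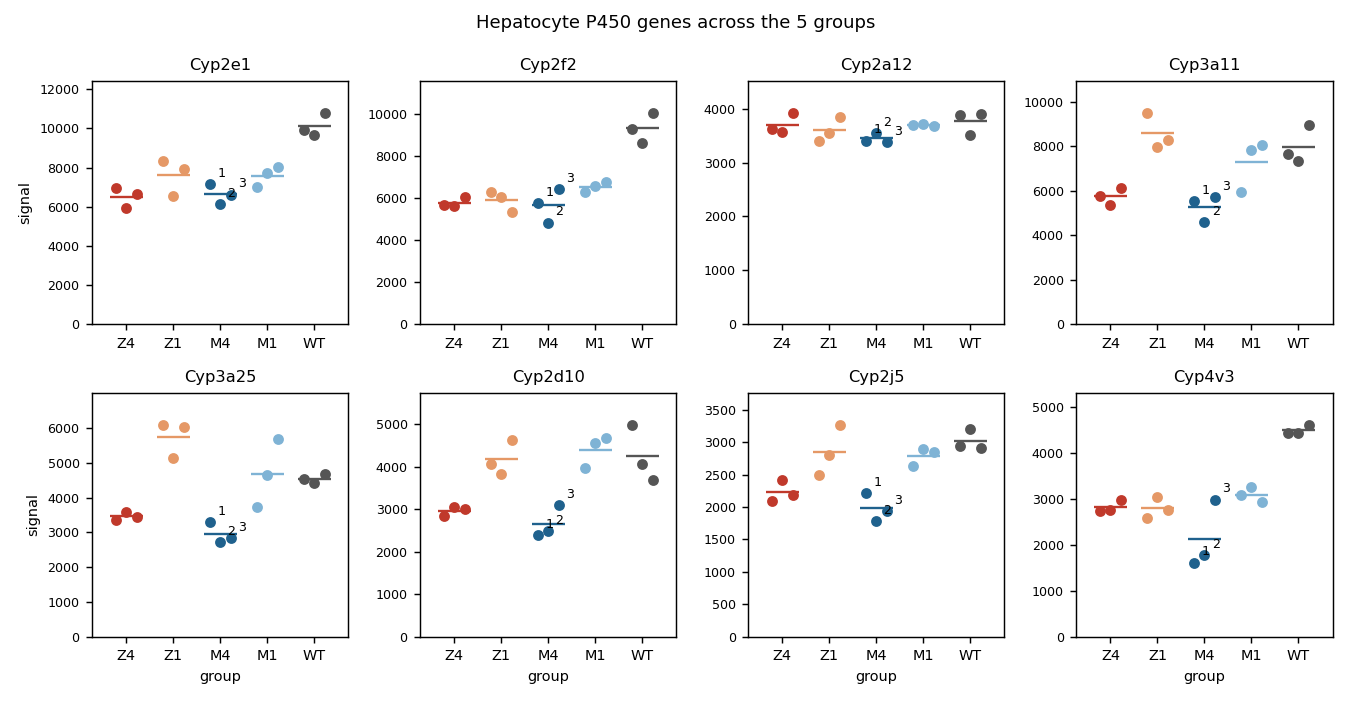
Signals on a linear axis from 0 for 8 bright P450 genes in the 5 groups, with 1 point per array, a bar at the group mean and the M4 replicate numbers beside the M4 points. Cyp2e1, Cyp2f2 and Cyp4v3 are highest in WT, Cyp2a12 is level, and Cyp3a11, Cyp3a25, Cyp2d10 and Cyp2j5 are lower in Z4 and M4 than in Z1 and M1.

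Of the 24 bright P450 genes, those above the 70th percentile, Cyp2e1, Cyp2f2 and Cyp4v3 were called lower than WT in every transgenic group. In all, 5 of the 24 were lower in Z4, 5 in Z1, 10 in M4 and 4 in M1, beside 9.17%, 10.2%, 18.6% and 10.9% of all bright genes. Cyp2e1, the ethanol-inducible P450 of the hepatocytes around the central vein, had 6962.3, 5941.3 and 6661.4 in Z4, 8359.3, 6567.2 and 7953.0 in Z1, 7142.8, 6143.1 and 6621.1 in M4 and 6985.5, 7749.9 and 8024.2 in M1, against 9931.8, 9670.3 and 10799.9 in WT. Cyp2f2, a P450 of the hepatocytes near the portal vein, had 5639.5 to 6069.1 in Z4, 5333.8 to 6274.8 in Z1, 4834.3 to 6445.1 in M4 and 6297.2 to 6742.8 in M1, against 9290.5, 8608.0 and 10055.2 in WT. Neither gene had a transgenic array within WT. Cyp2e1 fell by 0.64, 0.41, 0.61 and 0.42 in Z4, Z1, M4 and M1 against WT (adjusted p = 0.00605, 0.0327, 0.00451 and 0.0302), and Cyp2f2 by 0.68, 0.66, 0.72 and 0.51 (adjusted p = 0.00419, 0.00337, 0.00186 and 0.0118). After quantile normalization none of these 8 changes passed, those of Cyp2e1 in Z4 and M4 turned to 0.11 and 0.05 (adjusted p = 0.622 and 0.789), and the others were -0.04 to -0.32. The Z1 and M1 calls of Cyp2e1 also ended without single arrays (Z1 2 or Z1 3, M1 1 or M1 2, and WT 1, WT 2 or WT 3; adjusted p = 0.0507 to 0.136). Of the 8 hepatocyte markers, 6 were called lower than WT in Z4, 5 in Z1, 6 in M4 and 5 in M1, among them the serum albumin gene Alb (-0.89, -0.66, -0.85 and -0.64), whereas Hnf4a and Tat were called in none of these, and after quantile normalization 0 of the 8 were called against WT. In bulk liver, fewer cells of a type and less RNA per cell cannot be told apart.

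Cyp4v3, a fatty acid hydroxylase, had 2741.6 to 2961.2 in Z4, 2574.9 to 3032.9 in Z1, 1608.0, 1776.1 and 2982.0 in M4 and 2932.2 to 3246.9 in M1, against 4424.9 to 4601.5 in WT. All transgenic arrays lay below WT, and M4 1 and M4 2 lay below all others. It fell by 0.67, 0.69, 1.13 and 0.54 in Z4, Z1, M4 and M1 against WT (adjusted p = 0.0282, 0.0169, 0.00109 and 0.0455), and its second probe set was called in none of them (0.13, 0.51, -0.34 and 0.34). In M4 minus M1 it fell by 0.59 (adjusted p = 0.0163), a call that ended without M4 1, M4 2 or M1 2 (adjusted p = 0.0528 to 0.0701) and with array 3 alone (-0.05, adjusted p = 0.847). The calls in Z4 and M1 ended without any single array of either group (adjusted p = 0.0605 to 0.122) and, with that in Z1, after quantile normalization (adjusted p = 0.333, 0.176 and 0.0611). That in Z1 also ended without Z1 1 (adjusted p = 0.0613). Cyp2j5, an arachidonic acid epoxygenase of liver and kidney, fell by 0.50 in M4 minus M1 (1778.3 to 2216.4 against 2640.5 to 2890.9, adjusted p = 0.0066), and after quantile normalization the change was -0.355 and not called (adjusted p = 0.074). In Z4 minus Z1 the change of -0.34 missed the threshold (2101.7 to 2425.2 against 2494.1 to 3266.5, adjusted p = 0.054) and passed at a constant of 64 (adjusted p = 0.0209) and without Z1 1 (adjusted p = 0.0342). Cyp2j9 had 35.7, 10.6 and 22 in M4, against 57.8, 36.4 and 69.6 in M1 and 58.0 to 77.3 in Z4, so that it fell by 0.89 in M4 minus M1 (adjusted p = 0.00858) and was higher in Z4 than in M4 by 1.17 (adjusted p = 0.0234). The last call ended with only those groups in the fit (adjusted p = 0.212), at a constant of 1 (adjusted p = 0.0572) and without Z4 2, Z4 3, M4 2 or M4 3 (adjusted p = 0.0591 to 0.112). Cyp2j6 passed in no comparison, and Cyp2j13 was dim and rose in both lines (0.48 and 0.85, adjusted p = 0.038 and 0.00109).

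Among the Cyp4f and Cyp4b genes, which hydroxylate leukotrienes and other fatty acids, Cyp4f13 had 295.5, 285.8 and 336.9 in Z4, against 191.2, 189.8 and 191.1 in Z1, and 245.4, 276.7 and 451.8 in M4, against 177.0, 182.7 and 177.6 in M1. It was higher in every on array than in every off array (rose by 0.64 and 0.76, adjusted p = 0.0109 and 0.00279). M4 array 3 was the highest of all, and with it alone M4 minus WT passed (0.99, adjusted p = 8.38e-04) and Z4 minus M4 was -0.54 (adjusted p = 0.0346). Cyp4b1, a P450 best known from lung, had 113.8, 158.6 and 160.0 in M4, against 45.9, 66.0 and 52.0 in M1 (rose by 1.18, adjusted p = 8.54e-05), and 103.8 to 120.9 in Z4, against 73.3 to 93.5 in Z1 (0.36, adjusted p = 0.103). Cyp4f14 had 1176.0 to 1566.4 in M4, against 837.8 to 932.4 in M1 (rose by 0.58, adjusted p = 0.00502), and its call ended with array 3 alone (0.42, adjusted p = 0.103). Cyp4f16, dim, had 27.8, 42.6 and 21.1 in M4, against 4.2, 19.5 and 2.6 in M1 (rose by 0.94, adjusted p = 0.0225), and its call ended with M4 array 3 alone (0.65, adjusted p = 0.292). With no array left out, the probe set that Cyp4f16 shares with Cyp4f37 and that of Cyp4f15 passed in no comparison. Without M4 3 the shared probe set passed in M4 minus M1 (1.21, adjusted p = 0.00383 by limma). It then also passed in M4 minus WT (1.18, adjusted p = 0.0124) and Z4 minus M4 (-1.7, adjusted p = 0.00945). Without WT 1, Cyp4f15 passed in Z4 minus WT (0.58, adjusted p = 0.0428) and Z1 minus WT (0.64, adjusted p = 0.0181). Cyp4f18 stayed at 0.8 to 6.2 on all arrays.

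Set directly against each other, Z4 and M4 livers differed by a call in few P450 genes. Z4 minus M4 called 2 higher (Cyp2d13 and Cyp2j9) and 3 lower (Cyp2g1, Cyp3a16 and Cyp3a44), beside 4.81% of all genes (3.44% higher, 1.37% lower). The shared Cyp3a41 probe set was lower by 3.78 on the log2 scale (adjusted p = 0.0404). These calls ended without most single arrays of either group. With M4 array 3 alone, Cyp3a16, Cyp3a44 and the Cyp3a41 probe set were at -0.26, -0.51 and -0.33 (adjusted p = 0.642, 0.483 and 0.689), and Cyp2b9, Cyp2j9 and Cyp4f13 were the 3 genes called, beside 10.2% of all genes. With only those groups in the fit 0 of 47 passed by limma, while 13 had an unadjusted p under 0.05 with all groups in it, beside 19.6% of all genes. Between the off groups, Z1 minus M1, 0 of 47 P450 genes were called by limma, beside 0.0807% of all genes, while 8 had an unadjusted p under 0.05, beside 9.42% of all genes.

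Compared with WT, 3 P450 genes were higher and 5 lower in Z4 (12.2% of all genes called, 7.52% higher and 4.73% lower), and 7 and 11 in M4 (23.7%, 14.4% and 9.36%). In Z1, 1 was higher and 11 lower (23.5%, 3.88% and 19.6%), and in M1, 1 and 14 (25.4%, 3.78% and 21.6%). The higher genes of Z4 were Cyp26a1, Cyp2s1 and Cyp21a1, and the lower ones Cyp2d10, Cyp2e1, Cyp2f2, Cyp2j5 and Cyp4v3. The Cyp2d10 call (-0.506, adjusted p = 0.0357 by limma) ended without any Z4 array, WT 1 or WT 2 (adjusted p = 0.0684 to 0.127). It also ended at a constant of 1 (adjusted p = 0.0868), after quantile normalization (-0.165, adjusted p = 0.509) and with only those groups in the fit (adjusted p = 0.0801). The Cyp2s1 call (0.94, adjusted p = 0.0121) ended without Z4 3 or WT 2 (adjusted p = 0.0508 and 0.0506), and that of Cyp2j5 (-0.43, adjusted p = 0.0459) without any single array (adjusted p = 0.0608 to 0.135). The second probe sets gave 0.41 for Cyp2j5 (adjusted p = 0.552) and -0.02 for Cyp21a1 (adjusted p = 0.975) in Z4 minus WT. After quantile normalization the splits were 4 and 0 in Z4, 9 and 6 in M4, 3 and 1 in Z1, and 1 and 0 in M1, so that there were fewer lower calls on that scale. All-gene shares called were then 9.45%, 21.1%, 13.0% and 13.2%. With M4 array 3 alone, 3 were higher and 6 lower in M4, beside 16.5% of all genes. These comparisons share the WT arrays.

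Of 13 measured electron donors, cytochrome b5 and heme synthesis genes, which serve all P450 enzymes, 1 was higher and 1 lower in Z4 minus Z1, and 0 and 1 in M4 minus M1, beside 38.5% and 49.8% of all genes called. After quantile normalization the splits were 4 and 0, and 1 and 1. The lower gene was Pgrmc1, a heme-binding partner of P450 enzymes (fell by 0.56 and 0.72, adjusted p = 0.003 and 3.5e-04), whose Z line call ended after quantile normalization (-0.29, adjusted p = 0.0918). Alas1, the rate-limiting enzyme of heme synthesis, had 2186.6, 1673.0 and 3045.2 in Z4, against 1703.5, 138.4 and 401.7 in Z1, while all M4, M1 and WT arrays had 1558.4 to 3222.6. It rose by 2.23 in Z4 minus Z1 (adjusted p = 0.0098), and Z1 arrays 2 and 3 were the low ones. Among 19 regulators of P450 genes, 5 were higher and 0 lower in Z4 minus Z1, beside 31.2% and 7.31% of all genes. In M4 minus M1, 8 were higher and 2 lower, beside 37.5% and 12.3% of all genes. After quantile normalization the splits were 6 and 0, and 4 and 2. With M4 array 3 alone their median change in M4 minus M1 was 0.46, against 0.28 over all genes. Nr1i2, the pregnane X receptor that induces Cyp3a11, had 108.8, 109.4 and 153.4 in Z4, against 67.7, 51.3 and 44.7 in Z1, and 131.1, 122.0 and 80.4 in M4, against 30.5, 33.5 and 37.8 in M1 (rose by 0.98 and 1.33, adjusted p = 0.0045 and 4.0e-04). Ppara, the fatty acid receptor, had 1168.6, 899.3 and 1058.6 in Z4, against 434.9, 618.2 and 611.2 in Z1, and 843.4, 999.2 and 743.3 in M4, against 580.6, 531.0 and 500.8 in M1 (rose by 0.90 and 0.66, adjusted p = 0.0015 and 0.0076, and 0.46 with M4 array 3 alone, adjusted p = 0.17). Their groups did not overlap within either line.

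Of 3 regulators of sex-typed expression, Cux2 and Ghr differed between the M4 arrays, and Bcl6 was low on all of them. Cux2, a repressor typical of female liver, had 54.0, 60.0 and 14 in M4, against 14.8, 7.1 and 16.3 in M1, and 2.2, 1.2 and 15 in Z4, so that it was high on M4 arrays 1 and 2 alone (M4 minus M1 0.93, adjusted p = 0.044, and 0.08 with array 3 alone, adjusted p = 0.909). After quantile normalization its change was 0.47 and not called (adjusted p = 0.282). Bcl6, a repressor typical of male liver, had 32.2, 40.6 and 38.7 in M4, against 90.0, 126.6 and 173.1 in M1 (fell by 1.42, adjusted p = 0.042, and -1.38 with array 3 alone, adjusted p = 0.218). Ghr, the growth hormone receptor, had 2670.9, 458.9 and 721.5 in M4, against 3424.1, 3406.7 and 3287.1 in M1, and was low on arrays 2 and 3 rather than 1 and 2 (fell by 1.79, adjusted p = 0.0035). The order of the M4 arrays in Ghr therefore differed from that in Xist and in Cyp2b9.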

How the data were processed

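Liver RNA of 15 mice was measured on a mouse oligonucleotide array. The deposited values are linear intensity values, from 0 to 22995.4, of which the submitters' processing notes name only RMA, whereas RMA values are on a log scale, so the authors' steps from scan to table are not known in full. The 2% trimmed mean was 149.97 to 149.98 on every array, and 64 array controls were left out. An array has no read depth, and the 3 arrays per group limit the precision.

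Here log2(signal + 16) was fitted with limma 3.58.1 in R 4.3.3, with 1 mean per group over all 15 arrays. P-values were adjusted by Benjamini-Hochberg over 22626 probe sets per comparison and called under 0.05. On simulated data for Z4 minus Z1 over 22626 probe sets, the fit recovered 58% of changes of 1 log2 unit and 98% of 2, and called 0.0357% of unchanged probe sets. The simulation changed 100 probe sets by each size and gave the rest equal group means and independent noise. In the measured data 38.5% of genes were called in that comparison, so the simulated rates need not hold there. Alternatives were constants of 1 and 64, quantile normalization, dropping dim probe sets, 1 probe set per gene, only the groups compared, a replicate block, single arrays left out and M4 array 3 alone. Named were the called genes with the largest changes (up to 12 each way in the on-off comparisons, Z4 minus M4 and the interaction, up to 6 in the others) and a list of well-known P450 genes. Members and lists were chosen with earlier results of these data known. Promoters came from RefSeq (GRCm38.p6), which matched 39 of 53 symbols.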

Additional observations from a re-analysis of the deposited data

Results flagged for a closer look

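In Cyp3a44, a gene typical of female mouse liver, on and off arrays were ordered in opposite directions in the Z and M lines, but the difference between lines was not called. Z4 minus Z1 was -0.46 and was not called either (adjusted p = 0.294 by limma). M4 arrays 1 and 2, the highest of all in Cyp3a44, were also the highest in Xist. Every Z4 array lay below every Z1 array (13.6 to 26.9 against 29.1 to 41.5), and every M4 array lay above every M1 array (37.6 to 128.9 against 7.4 to 21.8). The on-off change in the Z line minus that in the M line was -2.05 on the log2 scale (SE 0.46), which did not pass (adjusted p = 0.0744 by limma). It passed without dim probe sets (adjusted p = 0.0436), without M4 1 (-1.74, adjusted p = 0.0254) and without M4 3 (-2.45, adjusted p = 0.012), and not with M4 array 3 alone (-1.25, adjusted p = 0.128).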

How the results depend on the processing

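Counts of called P450 genes were 17 in Z4 minus Z1, with 13 to 16 when single arrays were left out, and 30 in M4 minus M1, with 23 to 29, but 11 with M4 array 3 alone. Z4 minus M4 gave 5, with 0 at a constant of 1, 0 with only the groups compared, 2 with the replicate block, 3 with M4 array 3 alone, and 0 (without Z4 2) to 9 (without M4 3) when single arrays were left out. Z4 minus WT gave 8, with 5 at a constant of 1, 4 after quantile normalization and 4 to 7 without single arrays. M4 minus WT gave 18, with 6 with only the groups compared, 9 with M4 array 3 alone and 13 to 22 without single arrays. Z1 minus WT gave 12, with 4 after quantile normalization, 7 with only the groups compared and 7 to 8 without single arrays, and M1 minus WT gave 15, with 1 after quantile normalization and 10 to 12 without single arrays. Z1 minus M1 gave 0, with 1 with only the groups compared and 0 to 1 without single arrays. The interaction gave 0, with 1 at a constant of 64, 1 after quantile normalization, 3 without dim probe sets, 1 with 1 probe set per gene, 1 with M4 array 3 alone, 4 without M4 1, and 0 to 9 without single arrays, 9 being without M4 3. Signs turned for Cyp2e1 after quantile normalization (0.105 in Z4 minus WT, 0.053 in M4 minus WT) and with M4 array 3 alone for Cyp4a14 in M4 minus M1 (-0.073) and Cyp4a12a in M4 minus M1 (0.065) and M4 minus WT (0.291). The cause was not tested. Same-numbered arrays of different groups did not deviate together (correlations of -0.197 to 0.0627, 0 of 30 over 0.1), so the numbers were not taken to pair the samples, and the replicate block called 15 in Z4 minus Z1 and 30 in M4 minus M1.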
